A study of Mus musculus with 33 samples.

Results

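The 5.8S rRNA of the mouse carries 2 listed ribose methylations, 5.8S-Um14 and 5.8S-Gm75, and these are the sites described here. They make up the whole 5.8S section of the authors' list of 108 methylated nucleotides, the other 106 of which lie in 18S rRNA (40) and 28S rRNA (66). Both were read in every one of 33 libraries. Whole-tissue RNA came from adult mice (brain, heart, kidney, liver and lung), from the same organs at the embryonic stage E16.5 and from whole heads at E9.5, 11 groups of 3 biological replicates each. No mutant or treatment is named for any group, and strain, sex and adult age are not given in the labels used here. The counts cover rRNA alone, so the labelled tissues could not be set against tissue markers. In whole-tissue RNA, a change of methylation within cells and a change in the mixture of cell types cannot be told apart.

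The 5.8S rRNA is the small companion of 28S rRNA in the large ribosomal subunit, to which it is base-paired. A methyl group on the 2′ oxygen of a ribose is placed by fibrillarin, the methyltransferase of box C/D small nucleolar ribonucleoproteins, at a nucleotide that the snoRNA selects by base pairing. In human cells SNORD71, encoded in an intron of AP1G1, guides Um14, and SNORD96A, encoded in an intron of RACK1, guides Gm75. Mouse genes named Snord71 and Snord96a are present in the RefSeq gene table. RiboMeth-seq reads the mark as an absence: alkali breaks RNA next to a free 2′ hydroxyl, so fewer fragments begin or end at a methylated nucleotide. The score used here is 1 minus the read ends at a nucleotide over the weighted mean of its 6 neighbours on each side. It runs from 0, with as many ends as the neighbours or more, to 1, with no ends at all.

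The stretches of the 5.8S reference that carry the results are given as RNA, 5′ to 3′, with the scored nucleotide in capitals. The first line gives the start of the molecule, since the place of Um14 near the end bears on how it can be read. The others give the scored nucleotide with the 6 neighbours on each side that enter its score.
5.8S positions 1 to 30, with Um14: cgacucuuagcggUggaucacucggcucgu
5.8S-Um14, positions 8 to 20: uagcggUggauca
5.8S-Gm75, positions 69 to 81: ugaauuGcaggac
5.8S position 134, unlisted, positions 128 to 140: cccgggGcuacgc

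The molecule has 156 nucleotides in the deposited tables. Um14 has 13 nucleotides before it and 142 after it, and Gm75 has 74 before and 81 after. The libraries were made from fragments of 20 to 40 nucleotides, so a fragment that ends at Um14 would be shorter than the selected sizes. In all 33 libraries 0 of the 3′ read ends lay at Um14, and in its neighbours 3′ ends made up from 0.00114% to 3.09% of the read ends, with a median of 0.348% at E16.5 and 0.375% in adults. The score of Um14 therefore rests on 5′ ends, and its score from 3′ ends alone was 1 in every library whatever the stage. The site nearest to an rRNA end after it is SSU-Am27 in 18S rRNA, with 26 nucleotides to the end. There 3′ ends were counted in 32 of 33 libraries and the mean score was 0.958 in adults and 0.956 at E16.5.

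**Figure D1:**
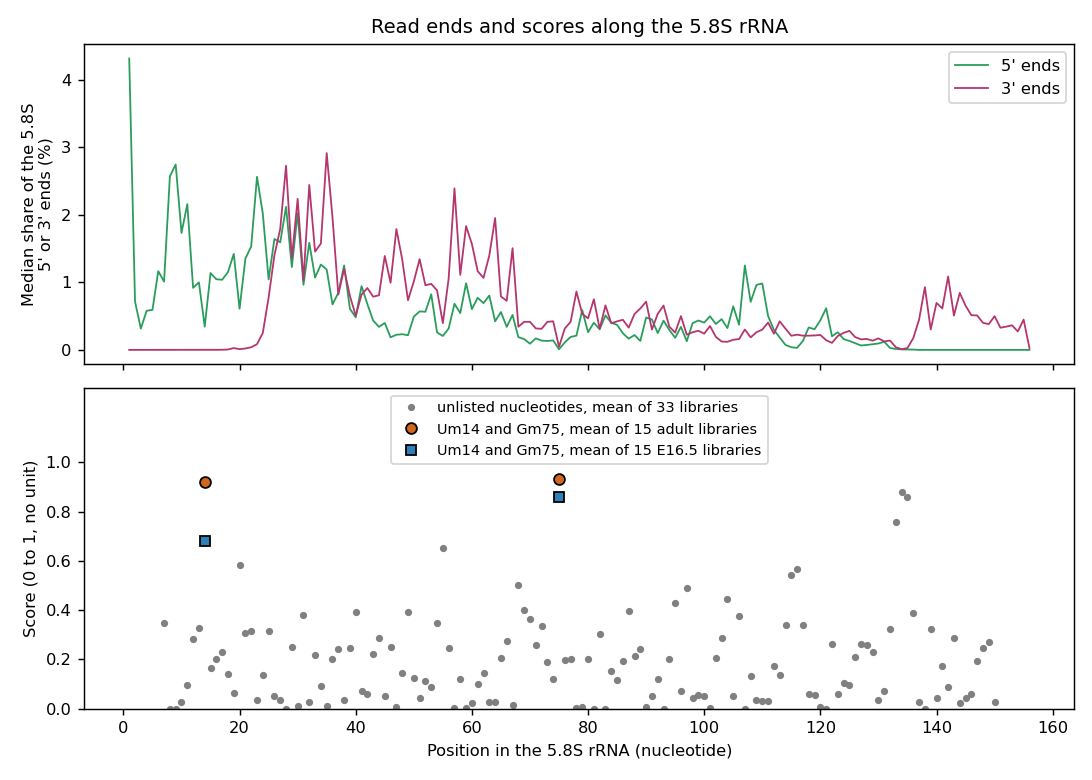
Upper panel, median share over 33 libraries of the 5′ or 3′ read ends of 5.8S rRNA that fell on each position (%). Lower panel, score of each position: unlisted nucleotides as the mean of 33 libraries, and Um14 and Gm75 as means of the 15 adult and the 15 E16.5 libraries (Um14 0.921 and 0.680, Gm75 0.931 and 0.860). The curve of 3′ ends lies at 0 over the first positions, Um14 included.

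Libraries held from 463388 to 35156406 read ends, with a median of 8896504, and 5.8S rRNA took from 2.38% to 7.18% of them. Behind each score of Um14 stood a neighbour mean of 236 to 16703 read ends per nucleotide, and behind each score of Gm75 one of 31.1 to 5571. Counting error alone gave a score an SD of at most 0.0447 at Um14 and 0.0724 at Gm75. The counts are of reads without molecular identifiers, so this covers counting error only. The labels name no batch, but the authors' barcode corrections divided the groups into 3 inferred library sets. Adult brain and adult liver formed one, adult heart was grouped with the fetal kidney, liver and lung, and the 2 adult groups left, kidney and lung, were grouped with the heads and with fetal brain and heart. The adult and E16.5 groups of a tissue always fell in different sets.

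Um14 was higher in adults than at E16.5 in every tissue, with no overlap between the libraries of the 2 stages. Adult libraries all lay above E16.5 libraries at 44.9% of the tested sites in brain, 17.8% in heart, 24.3% in kidney, 51.4% in liver and 19.6% in lung, and so the full separation of a single tissue is common. In brain the scores were 0.707, 0.736 and 0.658 at E16.5 and 0.875, 0.828 and 0.855 in adults. In heart they were 0.682, 0.751 and 0.838 at E16.5 and 0.952, 0.962 and 0.973 in adults. Adult heart spread over a narrower range than fetal heart. In kidney the scores were 0.637, 0.546 and 0.869 at E16.5 and 0.969, 0.976 and 0.977 in adults. In liver they were 0.379, 0.583 and 0.873 at E16.5 and 0.907, 0.907 and 0.915 in adults. In lung they were 0.563, 0.535 and 0.843 at E16.5 and 0.898, 0.892 and 0.923 in adults. In these 3 organs the third fetal library stood nearest to the adults and the other fetal libraries far below it. Of the 107 listed sites that could be tested, 8.41% had all adult libraries above all E16.5 libraries in each of the 5 tissues, and Um14 was one of them.

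**Figure D2:**
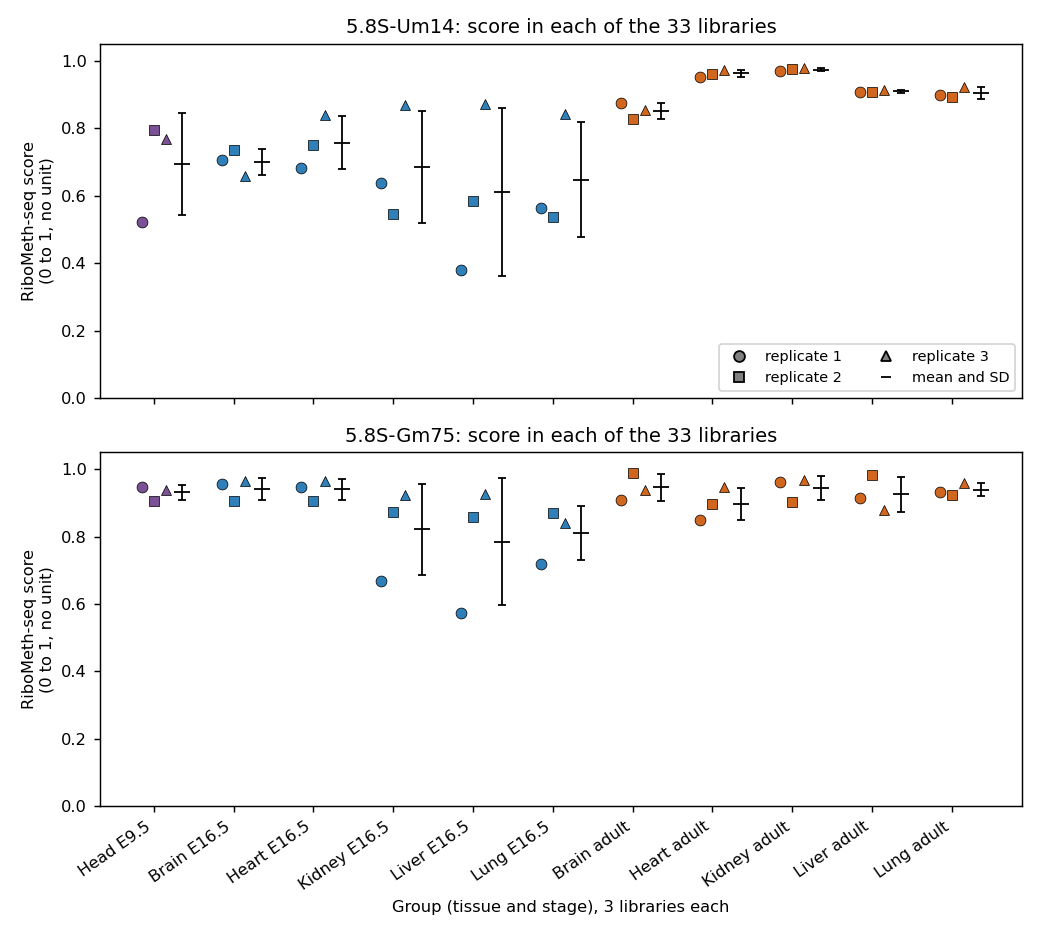
RiboMeth-seq score (0 to 1, no unit) of 5.8S-Um14 (upper) and 5.8S-Gm75 (lower) in each of 33 libraries, by group, with symbols for the replicate number and bars for the mean and SD of 3 libraries. For Um14 the adult libraries lie between 0.828 and 0.977, each above the E16.5 libraries of its tissue. For Gm75 the low libraries are those of E16.5 kidney, liver and lung, down to 0.572.

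Averaged over the 5 tissues, Um14 rose by 0.241 ± 0.0418 (SE; 95% interval 0.154 to 0.327; limma adjusted p = 3.62e-05; 15 adult and 15 E16.5 libraries). At that threshold 38.3% of the sites tested were called in either direction and 36.4% as higher in adults, so a call by itself is common here. By the size of its rise Um14 ranked 5 among the sites. With the medians of all libraries set equal the rise was 0.207 ± 0.0429 (limma adjusted p = 0.000377), and in a combination of tissues in which additive differences between library sets cancel it was 0.240 ± 0.0573 (limma adjusted p = 0.00275). Leaving out any 1 of the 30 libraries gave 0.217 to 0.267, and the call held each time.

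By single tissue limma called Um14 higher in adult kidney, by 0.290 ± 0.0935 (adjusted p = 0.0422; 11.2% of sites called), and in adult liver, by 0.298 ± 0.0935 (adjusted p = 0.0165; 28% of sites called). The differences in lung (0.257, adjusted p = 0.0646; 15.9% called), heart (0.206, adjusted p = 0.236; 7.48% called) and brain (0.152, adjusted p = 0.460; 7.48% called) did not pass on this scale. The model uses 1 spread for all 11 groups, which at Um14 were very unequal. The pooled SD of Um14 was 0.159 among E16.5 groups, rank 15 of 107 sites from the largest, and 0.0141 among adult groups, rank 88. The kidney call was lost without any 1 of 5 libraries, namely E16.5 kidney replicate 1 (0.267) or 2 (0.221) and adult kidney replicate 1 (0.293), 2 (0.289) or 3 (0.288). The liver call needed both E16.5 liver replicate 1 (0.181 in its absence) and replicate 2 (0.284). The lung difference became 0.355 and was called (limma adjusted p = 0.0137) without the third E16.5 library. With library medians equal, kidney (0.255, adjusted p = 0.0941) and liver (0.244, adjusted p = 0.0675) were not called, nor in models of each tissue's 6 libraries alone (adjusted p = 0.108 and 0.0986).

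The ends left at position 14 are the score turned over, with a floor where the score has its ceiling. A ratio of such percents grows as the adult value nears that floor. In kidney they fell from 31.6% ± 16.6 of the neighbour mean at E16.5 to 2.59% ± 0.471 in adults (SD, n = 3), a ratio of 12.2. In heart they were 24.3% ± 7.80 and 3.74% ± 1.06, a ratio of 6.49. In liver they were 38.8% ± 24.8 and 9.05% ± 0.434, and in lung 35.3% ± 17.04 and 9.56% ± 1.68, ratios of 4.29 and 3.69. In brain, with the smallest ratio, 2.03, they were 29.98% ± 3.97 and 14.8% ± 2.37. On the log2 scale of neighbour mean over site, with 1 added to each, the mean rise was 2.13 ± 0.226 (limma adjusted p = 6.42e-09). There 62 of 107 sites were called, so a call is common on this scale too. On that scale kidney (3.43, adjusted p = 1.11e-05, 19 of 107 sites called) and heart (2.65, adjusted p = 0.000355, 12 called) were called in limma. So were liver (1.82, adjusted p = 0.00426, 53 called) and lung (1.74, adjusted p = 0.0157, 16 called), while brain (1.02, adjusted p = 0.129, 26 called) was not.

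**Figure D3:**
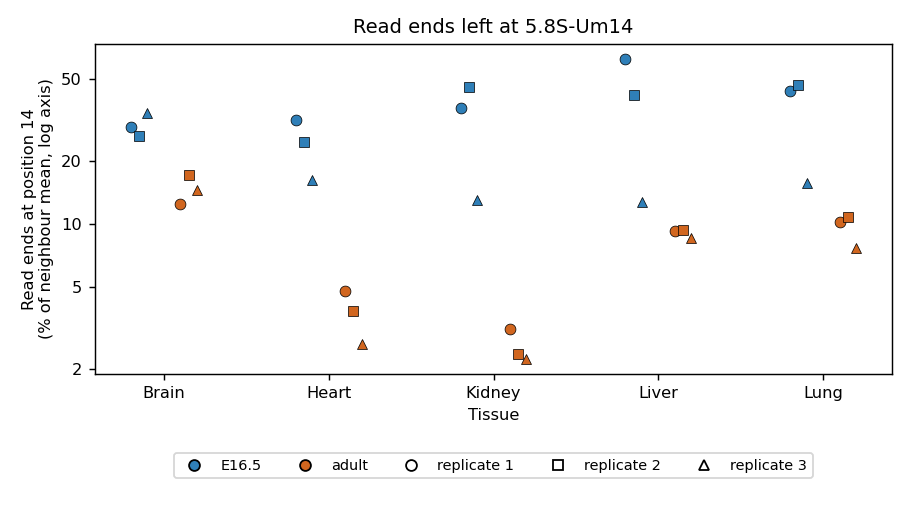
Read ends at 5.8S position 14 as a percent of the weighted neighbour mean (log axis) in each E16.5 and adult library, by tissue, with symbols for the replicate number. Each adult library lies below the 3 fetal libraries of its tissue, and adult heart and kidney lie lowest, with means of 3.74% and 2.59%.

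Whether the rise of Um14 differed between tissues was tested with an F test in limma. The 5 differences spanned a range of 0.146 and the test did not pass (adjusted p = 0.894, with 13.1% of sites called). The range was 0.276 without the third E16.5 liver library (adjusted p = 0.498) and 0.230 without the third E16.5 kidney library (adjusted p = 0.666). On the log2 scale, too, the test did not pass (adjusted p = 0.0978).

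Among adult tissues the order of Um14 from low to high was brain (0.852 ± 0.0237, SD, n = 3), lung (0.904 ± 0.0168), liver (0.910 ± 0.00434), heart (0.963 ± 0.0106) and kidney (0.974 ± 0.00471). The libraries of lung and liver overlapped, as did those of heart and kidney, while brain lay wholly below lung and liver wholly below heart. In the model of all 33 libraries the test among adult tissues did not pass (range 0.122, F test in limma, adjusted p = 0.999, 4.67% of sites called). In a model of the 15 adult libraries alone, where the fetal spread does not enter, it passed (adjusted p = 0.00487, 13 of 107 sites called). It also passed on the log2 scale (adjusted p = 0.00141), where calls were more common, at 40 of 107 sites. Within library sets, 2 pairs were compared in the model of all 33 libraries, whose spread takes in the fetal groups. Adult kidney exceeded adult lung by 0.0697 ± 0.0935 and adult liver exceeded adult brain by 0.0571 ± 0.0935. Neither was called there (limma adjusted p = 0.998 and 1; 0.935% and 0% of sites called). These pairs were not tested in the model of the adult libraries alone. Adult brain and liver share a library set, adult kidney and lung share another, and adult heart lies in a set with no other adult tissue. Apart from brain against liver and lung against kidney, tissue and set cannot be told apart in this order. The F tests among the adult tissues also mix the sets.

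Among fetal tissues Um14 averaged 0.612 ± 0.248 in liver, 0.647 ± 0.170 in lung, 0.684 ± 0.166 in kidney, 0.700 ± 0.0397 in brain and 0.757 ± 0.0780 in heart (SD, n = 3). Each group overlapped the next in this order, and the F test in limma did not pass (range 0.145, adjusted p = 0.687, 16.8% of sites called). The third libraries of kidney, liver and lung exceeded the next highest of their groups by 0.232, 0.290 and 0.281. Left out together, a choice made after their values were seen, they gave a range of 0.276 with brain and heart above the other 3. This range was called (limma adjusted p = 0.0146, 27 of 107 sites called). Brain and heart are the E16.5 groups of one library set and kidney, liver and lung those of another, so organ and set cannot be told apart in this order. Tested within the sets, with all libraries, the E16.5 tissues were not called (limma adjusted p = 0.929). Without the third liver library alone the range was also 0.276 and was not called (adjusted p = 0.193).

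The third library was also the highest of its group in adult heart, so it led at Um14 in all 4 groups of that library set. In adult heart its lead was small, 0.973 against 0.962. Over the 107 sites, same-numbered libraries of different groups deviated from their group means together in 17 of 17 pairs of groups within a set (mean r = 0.772) and in 0 of 38 pairs across sets. Within that set the stages can be set side by side only across organs: adult heart exceeded the mean of E16.5 kidney, liver and lung at Um14 by 0.315 ± 0.0763 (limma adjusted p = 0.00296, 17.8% of sites called). Within the set of E9.5 head, the mean of adult kidney and lung exceeded that of E16.5 brain and heart by 0.211 ± 0.0661. This was not called in the main model (limma adjusted p = 0.0587, 5.61% called). It was called with the replicate number as a block within library sets, a choice made after the data were seen (limma adjusted p = 0.00282).

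In the E9.5 whole heads Um14 scored 0.521, 0.796 and 0.768, with a mean of 0.695 ± 0.151. This was close to E16.5 brain, which exceeded it by 0.00530 (95% interval -0.187 to 0.198; limma adjusted p = 0.990, 8.41% of sites called). The 3 E16.5 brain libraries lay inside the range of the heads. Adult brain exceeded the heads by 0.158 ± 0.0935, and the difference did not pass (limma adjusted p = 0.187, 32.7% called). The first head library, the lowest, weighed on both values: without it adult brain exceeded the heads by 0.0705, and E16.5 brain differed from them by -0.0817. Over all single libraries left out, the latter difference ran from -0.0817 to 0.0556. The interval between E9.5 and E16.5 is wide enough to hold a change as large as that between E16.5 and adult brain.

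The read ends around position 14 were examined nucleotide by nucleotide, each relative to the mean of the unlisted neighbours. At position 14 itself the log2 level was -1.86 at E16.5 and -3.99 in adults, a difference of -2.13, and the adult libraries lay below the fetal ones in 5 of 5 tissues. No other position of the window was wholly lower or wholly higher in adults in more than 2 tissues. The next largest differences were +0.957 at position 20 and -0.710 at position 11. Both positions were among the 3 unlisted 5.8S nucleotides, 2.44% of 123 tested, whose own score differed between stages in a limma fit over 5490 nucleotides. Of these 5490, 2.19% were called. They are nucleotides with enough ends, a full window and a score above 0 in several libraries. The scores of the 3 unlisted nucleotides differed by +0.164 at position 11 (adjusted p = 0.000865), -0.129 at position 20 (adjusted p = 0.0286) and -0.269 at position 21 (adjusted p = 0.0490). With 3 neighbours on each side, a window that keeps position 11 and leaves out position 20, the mean rise of Um14 was 0.271 ± 0.0411 (limma adjusted p = 5.49e-06).

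**Figure D4:**
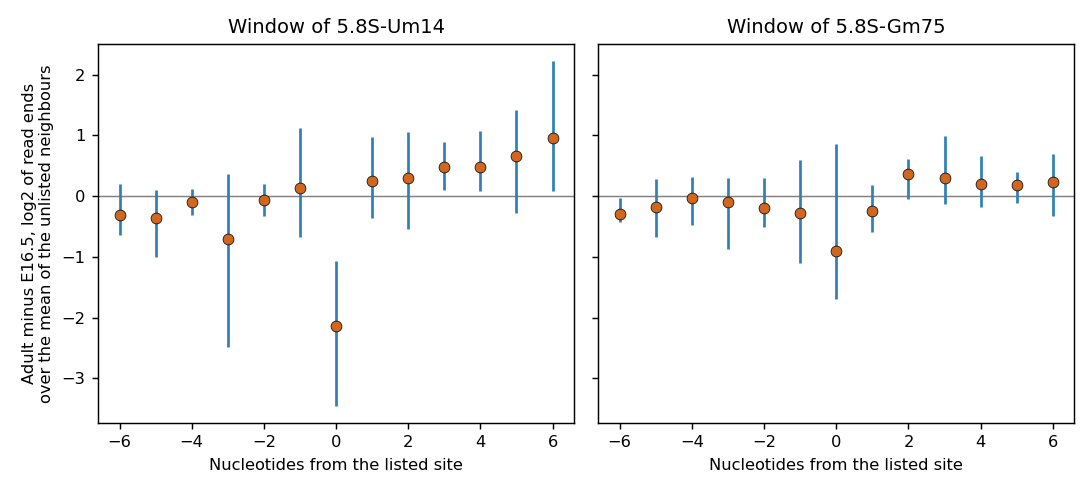
Adult minus E16.5 difference in the log2 of read ends over the mean of the unlisted neighbours, by distance from Um14 (left) and Gm75 (right) in nucleotides. Points are means of 5 tissues and bars the range of the 5 tissues. At Um14 the point lies at -2.13 and its bar stays below 0, while at Gm75 the point lies at -0.907 and its bar crosses 0.

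Gm75 was high at all stages and varied mainly in 3 fetal organs. Its scores were 0.955, 0.905 and 0.965 in E16.5 brain and 0.910, 0.990 and 0.939 in adult brain. In heart they were 0.949, 0.905 and 0.966 at E16.5 and 0.851, 0.897 and 0.946 in adults. In both organs the stages overlapped. In kidney they were 0.668, 0.872 and 0.924 at E16.5 and 0.962, 0.904 and 0.969 in adults. In liver they were 0.572, 0.859 and 0.925 at E16.5 and 0.916, 0.982 and 0.879 in adults. In lung they were 0.720, 0.871 and 0.839 at E16.5 and 0.933, 0.924 and 0.960 in adults. The first E16.5 library was the lowest in each of these 3 organs, and lung was the one tissue of 5 with no overlap between stages, as at 19.6% of the sites. The E9.5 heads scored 0.947, 0.907 and 0.939.

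Unlike Um14, Gm75 was read from both kinds of end. The site kept from 0 to 75 5′ ends and from 1 to 354 3′ ends per library, with medians of 13 and 70, and 3′ ends made up from 47.2% to 87.6% of those in its neighbours. From 5′ ends alone its score ran from 0.851 to 1 over the 33 libraries, and from 3′ ends alone from 0.497 to 0.999. In the first E16.5 library of kidney the 2 scores were 0.979 and 0.567. They were 0.942 and 0.497 in that of liver and 0.914 and 0.618 in that of lung. In these 3 libraries the score was low from 3′ ends and high from 5′ ends. The first library was also the lowest in adult heart, and so in 4 of 4 groups of that library set, while the second was the lowest in 5 of 5 groups of the set of E9.5 head and the highest in both groups of the set of adult brain and liver.

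**Figure D5:**
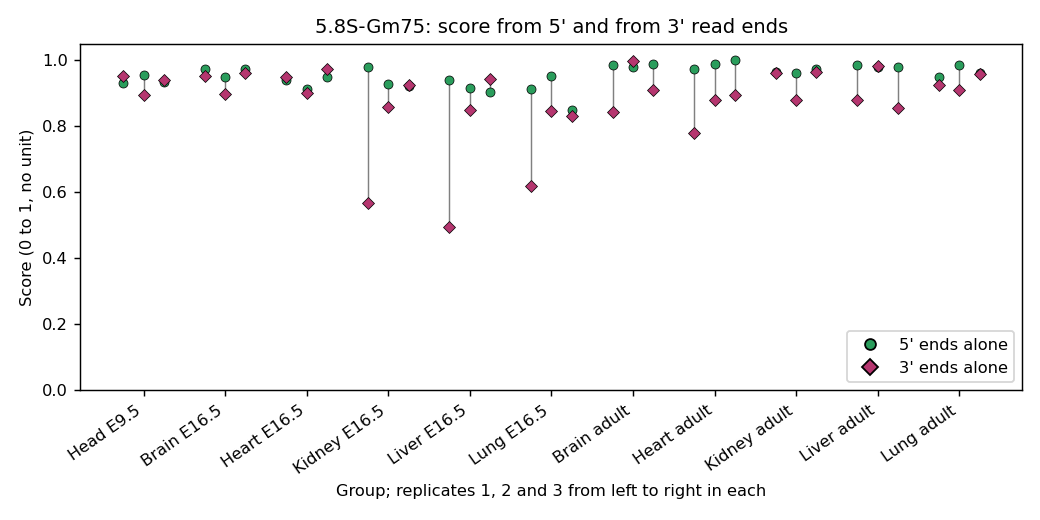
Score of 5.8S-Gm75 from 5′ read ends alone (circles) and from 3′ read ends alone (diamonds) in each of 33 libraries; a line joins both values of a library. The first libraries of E16.5 kidney, liver and lung have 5′ scores of 0.979, 0.942 and 0.914 and 3′ scores of 0.567, 0.497 and 0.618.

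The authors' deposited table gives barcode-corrected means of Gm75 in the same 3 groups, 0.925 for E16.5 kidney, 0.909 for E16.5 liver and 0.875 for E16.5 lung, where the uncorrected means were 0.821, 0.785 and 0.810. These corrected means were rebuilt from the counts by taking the first library of each group from 5′ ends alone. No group mean of Um14 was changed by the correction.

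Averaged over the 5 tissues, Gm75 was higher in adults by 0.0711 ± 0.0282 (SE; 95% interval 0.0129 to 0.129; limma adjusted p = 0.0485), a call at the edge of the threshold beside 38.3% of all sites called. With the authors' correction rebuilt, which at Gm75 takes 5′ ends alone in E16.5 libraries only, the difference was 0.0128 (adjusted p = 0.462). With library medians equal it was 0.0376 (adjusted p = 0.266). With additive set differences cancelled, from heart, kidney and lung alone, it was 0.0421 (adjusted p = 0.685). None of these was called in limma. From 3′ ends alone the difference was 0.0700 (adjusted p = 0.231), while from 5′ ends alone it was smaller, at 0.0440 ± 0.00777, and was called (adjusted p = 1.45e-05). Calls were common in that fit of 5′ ends, at 61 of the 87 sites tested. The call was lost without any 1 of 20 of the 30 libraries, at differences from 0.0498 (without the first E16.5 liver library) to 0.0738 (without the third E16.5 heart library). No single tissue was called: the differences were 0.140 in liver (adjusted p = 0.0976), 0.129 in lung (0.187), 0.124 in kidney (0.235), 0.00457 in brain (0.989) and -0.0422 in heart (0.867). From 5′ ends alone heart turned to +0.0540 and was called (adjusted p = 0.0270, 14 of 87 sites called). With the authors' correction rebuilt the differences were 0.0172 in liver, 0.0646 in lung and 0.0198 in kidney. Without the first E16.5 library of the tissue they were 0.0338 in liver, 0.0842 in lung and 0.0469 in kidney, none of them called. The liver difference was called without the third E16.5 liver library, at 0.210 (adjusted p = 0.0171). The brain difference had no stable sign, from -0.0173 to 0.0229 when single libraries were left out. In heart it was -0.0186 without the first and -0.0663 without the third adult library.

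Between tissues, the stage difference of Gm75 spanned 0.183 (F test in limma, adjusted p = 0.483, 13.1% of sites called). The adult tissues spanned 0.0488 (adjusted p = 0.999; 0.0252 without the first adult heart library), from heart at 0.898 ± 0.0477 to brain at 0.947 ± 0.0406 (SD, n = 3), each overlapping the next. With the authors' correction rebuilt the stage difference spanned 0.107 between tissues (F test in limma, adjusted p = 0.4997). The span of the adult tissues stayed at 0.0488 (adjusted p = 0.849). The E16.5 tissues spanned 0.156 (adjusted p = 0.176), or 0.0673 with the authors' correction rebuilt (adjusted p = 0.392). Without the third E16.5 liver library they spanned 0.226, which limma called (adjusted p = 0.0408), and without the first E16.5 liver library 0.132 (adjusted p = 0.0941). The 3 low organs were also the E16.5 groups of 1 library set, so organ and set cannot be told apart there. E16.5 brain exceeded E9.5 head by 0.0108 (95% interval -0.119 to 0.141; adjusted p = 0.990) and adult brain exceeded it by 0.0153 (-0.115 to 0.145; adjusted p = 0.876). Both differences crossed 0 when single libraries were left out, from -0.00129 to 0.0291 and from -0.00651 to 0.0336. Adult heart exceeded the mean of E16.5 kidney, liver and lung, of the same set, by 0.0921 ± 0.0516 (limma adjusted p = 0.256). With the replicate number as a block within library sets, added after the data were seen, this was called (limma adjusted p = 0.0121). In the other set, the mean of adult kidney and lung differed from that of E16.5 brain and heart by 0.00111.

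Across the 11 group means the 2 sites had a Pearson r of 0.633 (Spearman 0.573), given as a description since the groups share library sets and depth. The sites most like Um14 were LSU-Am4560 (r = 0.901) and LSU-Am2388 (r = 0.898) in 28S and SSU-Um1804 (r = 0.893) in 18S rRNA. All 3 had their lowest group mean in E16.5 liver, as Um14 had. The group means ran from 0.440 to 0.858 at LSU-Am4560, from 0.887 to 0.985 at LSU-Am2388 and from 0.612 to 0.974 at Um14, so LSU-Am2388 varied least. Gm75 was most like SSU-Gm644 (r = 0.979), LSU-Am1313 (r = 0.948) and SSU-Um116 (r = 0.947), whose lowest means were in E16.5 liver for the first pair and E16.5 kidney for SSU-Um116.

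Some unlisted nucleotides also had high scores, and 2 of them averaged above Um14 (0.791 over the 33 libraries), though none above Gm75 (0.899). Of 142 unlisted positions with a full window, with a median mean score of 0.142, position 134 averaged 0.880 over the 33 libraries, position 135 averaged 0.861 and position 133 averaged 0.759. These 3 adjoin each other in the g- and c-rich stretch shown above. In adults and at E16.5 the means were 0.889 and 0.865 at position 134, 0.872 and 0.863 at position 135 and 0.791 and 0.736 at position 133. Um14 was among the 2 highest-scoring nucleotides of 5.8S rRNA in 7 of 15 adult libraries and in 0 of 15 at E16.5. Gm75 was among the 2 highest in 15 of 33 libraries.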

How the data were processed

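RiboMeth-seq libraries from whole-tissue mouse RNA were sequenced on the Ion Proton platform, per the labels' protocols. Tools named in the submitters' processing notes are Bowtie2 2.3.4.1 and cutadapt 2.0, and the reference of the alignment is not given in the sources used here. The authors deposited counts of 5′ ends, of 3′ ends and of their sum for 6878 rRNA nucleotides in each of 33 libraries, and a fraction methylated per nucleotide. They also deposited a score per group and listed site, corrected at some sites for barcode effects, per the file headers. The column headers name adult lung in every sheet, so the group was taken from the sheet name and checked against the deposited group means, of which 84 to 104 of 108 were equal within 1e-05 to those of the sheet's own group and at most 2 to those of any other. The fraction was rebuilt from the counts within 5e-10.

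Of 108 sites, 107 had a weighted neighbour mean of at least 10 ends in every library and were tested. The uncorrected score was fitted in limma 3.58.1 (R 4.3.3) in 1 model of 11 groups, with a mean-variance trend and Benjamini-Hochberg adjustment over the 107 sites. A call is an adjusted p under 0.05. The fit was tested on simulated data with the same form of spread in all groups and no library sets. That test does not cover the unequal spreads or the library sets of these data. Named beside both 5.8S sites are the 3 sites with the most similar group means, the site within 30 nucleotides of an rRNA end, and the 3 unlisted 5.8S nucleotides with the highest mean score. The sites and these rules were chosen with earlier results of these data known. Replicate numbers were tested for pairing by the correlation of their deviations over 107 sites. Library sets were inferred from whether the authors' correction changed SSU-Am1031, SSU-Gm683 or neither in a group. The numbers paired libraries within a set (lowest r = 0.587), E16.5 brain and E9.5 head among them (0.655 to 0.807), and did not pair the adult and E16.5 groups of any tissue.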

Additional observations from a re-analysis of the deposited data

How the results depend on the processing

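The mean rise of 5.8S-Um14 kept its direction and its call under every alternative run, leave-one-out fits included (0.217 to 0.267). The run with set differences cancelled covers heart, kidney and lung alone. In single tissues its calls moved. Kidney was not called with library medians equal (0.255), after thinning to the shallowest library (0.273), with only the libraries compared (0.290) or over all nucleotides (0.290), and without single libraries it ran from 0.221 to 0.382. Liver was not called with library medians equal (0.244) or with only the libraries compared (0.298), and ran from 0.181 to 0.429. Lung was called from 5′ ends (0.262), with the authors' correction (0.257), with 3 neighbours (0.280), on the log2 scale (1.74) and without the third E16.5 kidney, liver and lung libraries (0.355), and ran from 0.201 to 0.355. Heart was called on the log2 scale (2.65). The adult tissues differed on the log2 scale (range 2.50) and in a model of the adults alone (0.122), and the E16.5 tissues without the same libraries (0.276).

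The mean rise of 5.8S-Gm75 was not called from 3′ ends (0.0700), with the authors' correction (0.0128), library medians equal (0.0376), only the libraries compared (0.0711), set differences cancelled (0.0421) or all nucleotides (0.0711), and ran from 0.0498 to 0.0851 without single libraries. Its heart difference reversed from 5′ ends (0.0540). There liver (0.0613, 56 of 87 sites called), lung (0.0615, 21), adult brain minus E9.5 head (0.0439, 57) and the E16.5 tissues (0.0607, 36) were called. Liver was also called with 3 neighbours (0.160, 36 of 105 sites called) and after thinning (0.164, 25 of 102). It was called without the third E16.5 libraries (0.210, 35 of 107), and ran from 0.0338 to 0.210 without single libraries. Without the third E16.5 libraries kidney (0.175, 24 of 107) and the E16.5 tissues (0.226, 27 of 107) were called. The E16.5 range ran from 0.132 to 0.226 without single libraries. The cause of these moves was not tested.

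With the replicate number as a block over all groups, Um14 in lung was called (0.257, 19 of 107 sites called). A block within library sets, added after the data were seen, also called Um14 in heart (0.206, 28 of 107 sites called). It called Um14 in lung (0.257, 40 of 107) and adult brain minus E9.5 head (0.158, 62 of 107). It called Gm75 in kidney (0.124, 39 of 107), liver (0.140, 58 of 107) and lung (0.129, 40 of 107). Between tissues (0.183, 41 of 107) and among E16.5 tissues (0.156, 53 of 107) Gm75 was called too. Calls were thus common with this block. In the report's contrasts across organs within a set it added 2 calls, given there, and it changed no other call of the results listed here. Um14 could not be tested from 3′ ends. The lowest depth behind Gm75 was 31.1 ends per neighbour, in the third E16.5 lung library, and a minimum of 50 leaves Gm75 untested.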
